A study of Homo sapiens with 6 samples.

Results

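The proteasome genes described here are the protein-coding genes of the deposited table whose symbols start with PSM, a letter from A to G and a digit, without PSMB8 and PSMB9. This rule, which uses names and no measured value, found 47 of the 58735 genes in the table. RNA was sequenced from HCT116SCs, cells sorted for CD44 and CD326 (the protein of EPCAM) from the colorectal cancer line HCT116 and grown as tumor spheres in serum-free medium with 20 ng/mL of EGF and 20 ng/mL of bFGF. The genotype of all cells was labelled WT. All cells were transfected, the 3 NC libraries with negative control siRNA and the 3 siPSCA libraries with siRNA against PSCA (prostate stem cell antigen), and harvested 48 h later. There was no untransfected group, the sources used here do not state which of the 3 designed PSCA siRNAs was given, and every library comes from this 1 line. The labels number the libraries 1 to 3 in each group without saying that they came from separate cultures, so p-values measure the spread between these libraries, which may be technical. In bulk RNA, fewer cells of a type and less RNA per cell cannot be told apart.

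The proteasome is the protease that degrades most proteins tagged with ubiquitin. Its barrel-shaped core is built from outer rings of alpha subunits (PSMA genes) and inner rings of beta subunits (PSMB genes), of which PSMB5, PSMB6 and PSMB7 carry the cutting sites. The regulatory particle that caps the core has a base, with the ATPases of the PSMC genes that unfold the substrate, and a lid of PSMD subunits, where PSMD14 removes the ubiquitin chain. PSME proteins are other caps, and PSMG proteins and some PSMD proteins are chaperones that assemble the parts. The transcription factor NFE2L1 is known to raise many of these genes together when proteasome activity falls, through antioxidant response elements in their promoters. The measurements here are RNA levels. Protein amounts and proteasome activity were not measured.

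To show such elements in these genes, the letters TGACNNNGC were sought on both strands of RefSeq promoters (GRCh38.p14, 250 bases before to 50 after each start). Of the 47 genes, 41 had a promoter in the table, with 50 promoters in all. The letters occurred in 14 of these 50 promoters (28%) and in 13.35% of all 35116 promoters of the same length. One stretch is printed for each of 5 genes that differed in their response, with 10 bases on either side in lower case and the matched letters in capitals.
PSMB3: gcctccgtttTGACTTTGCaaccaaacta
PSMD3: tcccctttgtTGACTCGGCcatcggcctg
PSME2: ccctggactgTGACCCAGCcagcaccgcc
PSMA4: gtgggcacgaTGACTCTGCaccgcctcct
PSMD12: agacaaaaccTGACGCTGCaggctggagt
The stretches lie at chr17:38752627-38752655 (plus strand), chr17:39980760-39980788 (plus), chr14:24146767-24146795 (minus), chr15:78540650-78540678 (plus) and chr17:67366724-67366752 (minus), and are written 5′ to 3′ along the gene. PSMD3 had a second match on the other strand, which is not shown. In the comparison of siPSCA with NC below, PSMB3, PSMD3 and PSME2 were higher, PSMA4 was not called and PSMD12 was lower. By call, the letters were found for 4 of the 16 higher genes with a promoter, 1 of 2 lower genes, 9 of 20 genes not called and 0 of 3 genes not tested. Of 2 other motifs sought in the same way, CCAAT occurred in 21 of the 50 promoters (42%) and in 34.6% of all promoters. CCGGAAG, the core of the site that ETS factors bind, occurred in 17 of the 50 (34%) and in 10.3% of all. Among the 21021 promoters of protein-coding genes, TGACNNNGC occurred in 13.82%, CCAAT in 34.66% and CCGGAAG in 12.91%. Promoters of the same gene can overlap, so 1 site can count more than once. A match of letters is a description and not a measured binding site, and no match says only that the letters were not in this window.

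The values are FPKM, that is, read fragments scaled by the length of the gene and by the library total. Reads on genes ranged from 16099716 to 17302219 per library, and 1 read on a gene of 1 kb was worth 0.0549 to 0.0595 FPKM. The targeted gene PSCA lay too low to check the labels, with 4, 12 and 15 reads in NC 1 to 3 against 9, 9 and 7 in siPSCA 1 to 3, which overlapped. The marker genes of the sorted cells were present (CD44 59.6 to 87.5 FPKM, EPCAM 93.3 to 123), and so were the epithelial genes KRT8, KRT18, KRT19 and CDH1, whereas VIL1 of the intestinal brush border did not exceed 0.0407. CD44 and CDH1 were lower in siPSCA without overlap, by limma with log2 fold changes of -0.44 (adjusted p = 0.0019, and -0.29 with the GC correction described below) and -0.60 (adjusted p = 0.0013, and -0.60). KRT8, KRT19 and CDX2 were higher without overlap, at 0.22 (adjusted p = 0.0085, and -0.05 with GC correction), 0.25 (adjusted p = 0.0059, and -0.26) and 0.70 (adjusted p = 0.0039, and 0.40). EPCAM was not called, and KRT18 was called only with GC correction, as lower (-0.42, adjusted p = 0.0287). The part of these genes in the proteasome results was not tested. Of 6 genes of other cell types, CD3E was at 0 and PTPRC, COL3A1, PECAM1 and VWF did not exceed 0.156, while COL1A1 had 3.35 to 6.51. The library NC 3 stood apart from NC 1 and NC 2 in a way that followed the base composition of the genes. Proteasome genes whose call changed when NC 3 was left out are given with and without it, and other genes only in part.

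Expression of the proteasome genes shifted upward in siPSCA, most evenly among the beta subunits of the core. As deposited, 12 of the 44 tested genes had a log2 fold change below 0, in the lid and outside it. After the GC correction described below, 5 did. The summed FPKM of the 47 genes was 1305, 1309.6 and 1330.45 in NC 1 to 3 and 1589.5, 1554 and 1544 in siPSCA 1 to 3. Their share of all reads on genes was 0.461%, 0.463% and 0.488% in NC and 0.545%, 0.539% and 0.538% in siPSCA. Every siPSCA library lay above every NC library in both measures. Of the 47 genes, 44 had a mean of at least 1 FPKM over the 6 libraries and were tested with limma among 13796 genes. Of these 44, 22 were higher in siPSCA, 2 were lower (PSMD11 and PSMD12) and 20 were not called at an adjusted p under 0.05. Over all 13796 genes, 26.6% were higher, 24.2% lower and 50.7% called in either direction. Of the 11079 protein-coding genes tested, 3424 were higher and 2795 lower. In a fit of genes with a mean of at least 5 FPKM, 21 of 39 proteasome genes were higher, against 2680 of all 7630 genes. The median log2 fold change, on the scale of log2(FPKM + 1), was 0.20 over the 44 genes against 0.01 over all genes tested and 0.04 over the protein-coding genes tested. Single values ran from -0.24 (PSME4) to 0.94 (PSMB10). The libraries of the groups did not overlap for 32 of the 44 genes, 25 higher and 7 lower in siPSCA, against 64.5% of all genes tested in either direction. PSMB10, PSMG4 and PSMD9 reached the minimum only through their siPSCA libraries. The other 41 tested genes held 21 higher and 2 lower calls, with a median of 0.21. An exact permutation test of 3 libraries against 3 cannot go below p = 0.1, so calls come from limma alone.

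**Figure D1:**
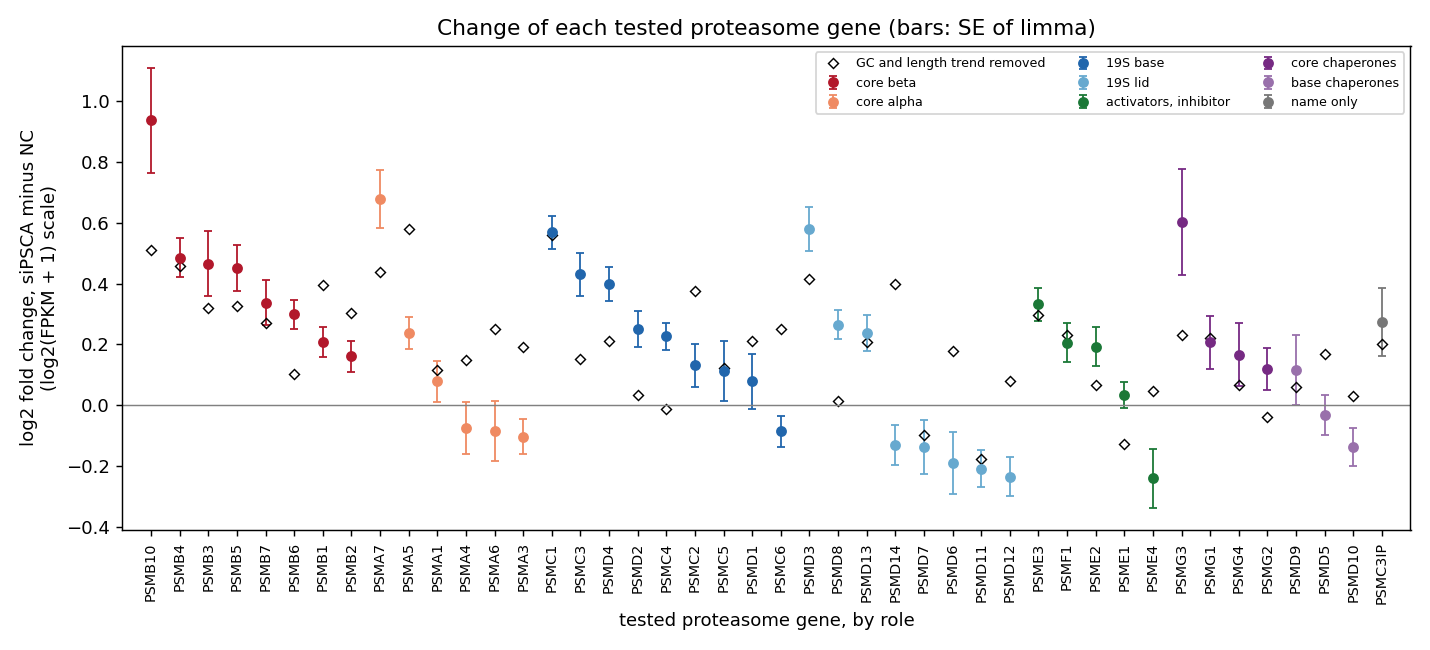
Log2 fold change of each of the 44 tested proteasome genes (siPSCA minus NC, log2(FPKM + 1) scale), grouped by role, with bars for the SE of limma. Open diamonds give the value after GC correction, for which the trend on GC content and gene length is taken out of every library. All 8 beta subunits lie above 0 in both, while 5 of the 8 lid genes lie below 0 as deposited.

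The higher genes differed from the others in base composition. GC content was taken from the longest transcript of each gene. Across the 44 genes, Spearman's rho between the log2 fold change and this GC content was 0.720. It was 0.664 across 13792 genes, which all come from the same 6 libraries. The 22 higher genes had a median GC content of 52.3%, the 20 genes not called 43.2% and the 2 lower genes 42.9%. Among the 44 genes the difference of NC 3 from NC 1 and NC 2 also followed GC content, with a rho of -0.483. When this trend, and that on gene length, was taken out of every library before the fit (GC correction), 21 genes were higher, 1 was lower and 22 were not called, against 21.2% higher and 18.5% lower over all 13792 genes with a GC content. The median was again 0.20, against 0.02 over all genes, and the rho across the 44 genes became -0.133. The counts thus stayed close while the genes behind them partly changed. Higher in both fits were 15 genes, namely PSMA5, PSMA7, PSMB1, PSMB2, PSMB3, PSMB4, PSMB5, PSMB7, PSMB10, PSMC1, PSMD3, PSMD4, PSMD13, PSME3 and PSMF1. Higher only without GC correction were 7 genes (PSMB6, PSMC3, PSMC4, PSMD2, PSMD8, PSME2 and PSMG3), and higher only with it were 6 genes (PSMA3, PSMC2, PSMC6, PSMD1, PSMD5 and PSMD14). Whether base composition caused these shifts was not tested.

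**Figure D2:**
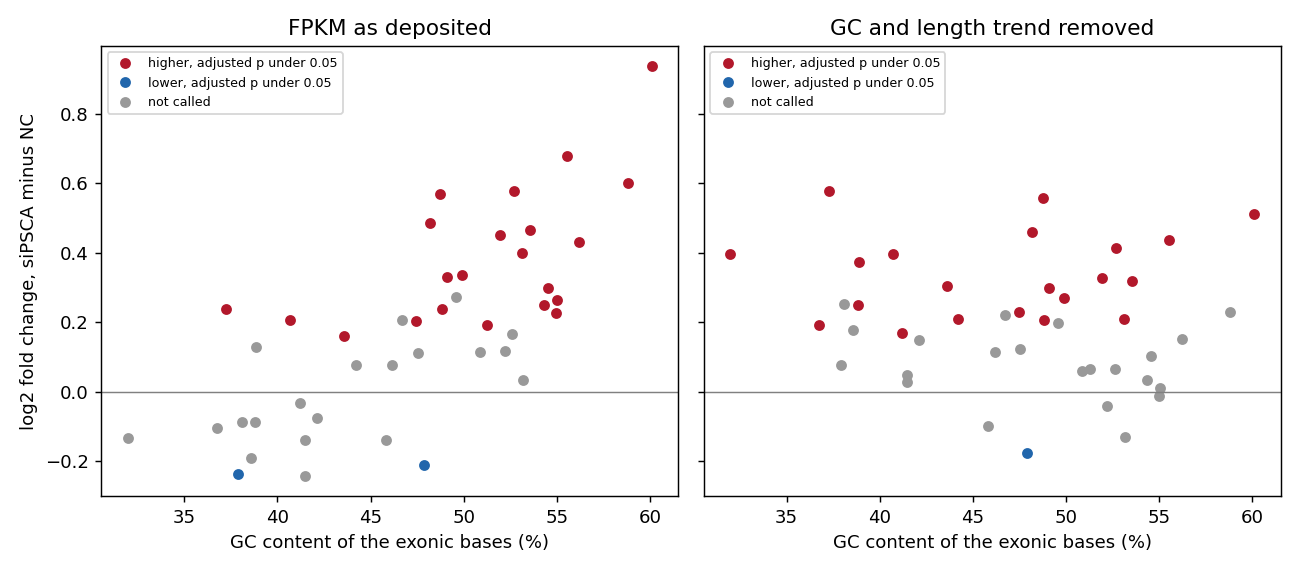
Log2 fold change of the 44 tested proteasome genes against the GC content of their longest transcripts, from FPKM as deposited (left) and after GC correction (right). The axis label names exonic bases, but the values are those of the longest transcript. On the left the 22 higher genes gather at high GC content (median 52.3%), and on the right rho is -0.133 and 21 genes are higher over most of the range.

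The beta subunits were the most uniform group. All 8 tested beta genes rose, their median log2 fold change was 0.39, and 7 of the 8 were also called after GC correction, with a median of 0.32. Over all genes tested, 26.6% were higher as deposited and 21.2% after GC correction. Without PSMB10, which reached the minimum only through its siPSCA libraries, 7 of 7 rose with a median of 0.34, and 6 were called after GC correction with a median again of 0.32. The summed FPKM of the beta genes was 424, 413 and 394 in NC and 537, 531 and 523 in siPSCA, a ratio of 1.29. PSMB5, which carries the chymotrypsin-like site and is the main target of bortezomib, had 70.2, 65.7 and 59.8 FPKM in NC 1 to 3 and 92.2, 92.4 and 83.7 in siPSCA 1 to 3. Its groups were clearly apart, with a log2 fold change of 0.45 (SE 0.07, adjusted p = 0.0046) and 0.33 after GC correction (adjusted p = 0.0057). PSMB6, of the caspase-like site, had 54.8, 56.6 and 57.3 FPKM in NC and 70.6, 70.8 and 66.8 in siPSCA. This gene rose by a log2 fold change of 0.30 (SE 0.05, adjusted p = 0.0039), but its value was 0.10 after GC correction (adjusted p = 0.196). PSMB7, of the trypsin-like site, had 49.3, 49.7 and 58.5 FPKM in NC and 66.2, 65.8 and 67.02 in siPSCA. NC 3 was the highest control library here and still lay below every siPSCA library. The log2 fold change of PSMB7 was 0.34 (SE 0.07, adjusted p = 0.0119), and 0.27 after GC correction (adjusted p = 0.0364).

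The non-catalytic beta subunits, which hold the rings together, gave the same direction. PSMB4 had 65.6, 63.4 and 56.4 FPKM in NC and 86.2, 87.4 and 86.6 in siPSCA (log2 fold change 0.49, SE 0.06, adjusted p = 0.0024). In PSMB3, whose promoter stretch is shown above, NC 3 had 61.0 FPKM while NC 1 and NC 2 had 79.7 and 77.1, and the siPSCA libraries had 100.3, 96.0 and 104. Its log2 fold change was 0.47 with all libraries (adjusted p = 0.0132) and 0.35 without NC 3. PSMB1 had 71.9, 70.1 and 72.3 FPKM in NC and 85.6, 83.4 and 78.9 in siPSCA, with 0.21 before and 0.40 after GC correction. The smallest change of the group was that of PSMB2, with 31.7, 30.3 and 28.7 FPKM in NC and 33.6, 33.5 and 34.4 in siPSCA (log2 fold change 0.16, adjusted p = 0.0421). The PSMB2 call was lost without NC 2 or any 1 of the siPSCA libraries (adjusted p = 0.101 to 0.122), and that of PSMB1 without NC 2, siPSCA 1 or siPSCA 2 (adjusted p = 0.0530 to 0.0614), whereas PSMB4, PSMB5 and PSMB7 stayed called in all 16 alternative analyses.

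PSMB10, the inducible subunit that replaces PSMB7 in immunoproteasomes, lay far below the constitutive genes and had the largest log2 fold change. It had 0.610, 0.620 and 0.219 FPKM in NC and 2.01, 1.37 and 2.13 in siPSCA, from 19, 20 and 7 reads and 63, 45 and 72 reads. All siPSCA libraries lay above all NC libraries, with a log2 fold change of 0.94 (SE 0.17, adjusted p = 0.0065), 0.80 without NC 3 and 0.51 after GC correction (adjusted p = 0.0331). The size of the change depends on the setting, with 1.80 at a pseudocount of 0.1, 1.47 with TPM and 2.03 with limma-voom on recovered reads. The call was lost after GC correction with a replicate block (adjusted p = 0.0678) or without NC 3 (adjusted p = 0.0605). At 60.1%, its GC content was the highest of the tested members. For each unit of PSMB7 there were 0.0124, 0.0125 and 0.00375 units of PSMB10 in NC and 0.0304, 0.0208 and 0.0318 in siPSCA. Outside the rule, the inducible subunit PSMB9, which replaces PSMB6, had 2.98, 2.26 and 2.25 FPKM in NC and 4.002, 3.96 and 3.66 in siPSCA (log2 fold change 0.48, adjusted p = 0.0091). PSMB8, which replaces PSMB5, had 8 to 24 reads per library, overlapped between the groups and lay below the minimum. The thymus-specific PSMB11 was at 0 in 5 libraries and had 2 reads in siPSCA 3, no more than the 3 reads that a count of 0 allows.

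**Figure D3:**
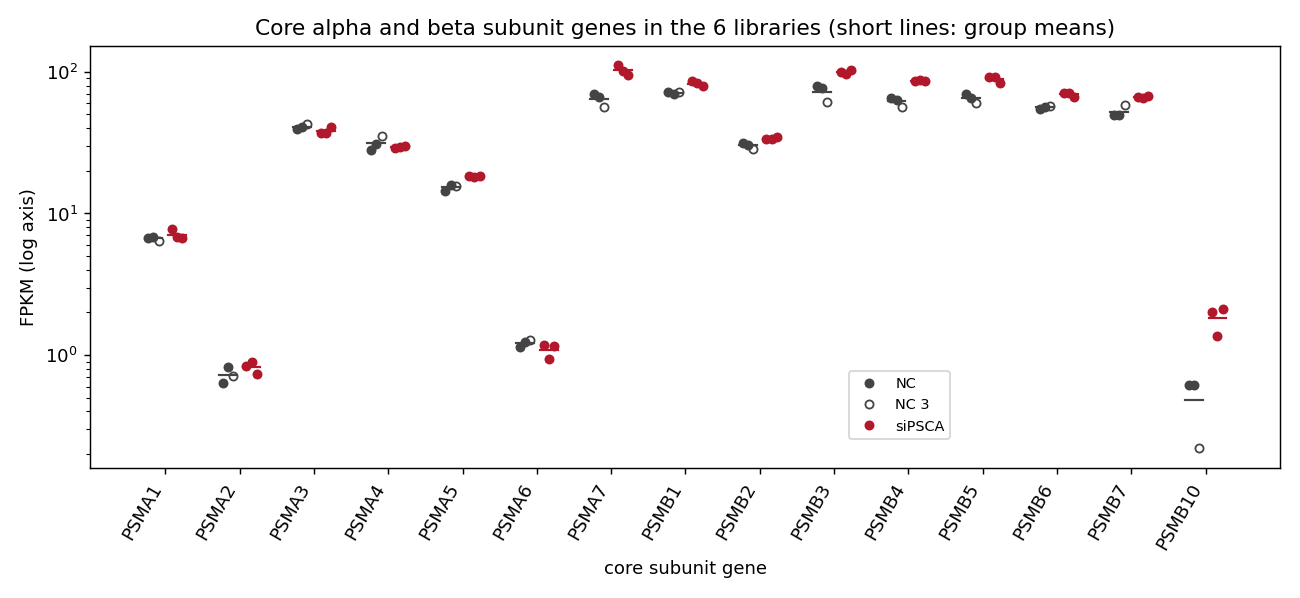
FPKM on a log axis of the core alpha and beta genes in the 6 libraries, with short lines at the group means and an open circle for NC 3. PSMA8 and PSMB11, at 0 in 5 libraries, are left out. The siPSCA libraries lie above all NC libraries for the 8 tested beta genes, PSMA5 and PSMA7, and PSMA1, PSMA2, PSMA6 and PSMB10 sit far below the others.

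The alpha subunits, which form the gate to the core, were split. Of 8 alpha genes 6 were tested, and 2 of them rose (PSMA5 and PSMA7), 0 fell and 4 were not called, with a median log2 fold change of 0.00. After GC correction 3 were higher and the median was 0.22. Of all genes tested, 26.6% were higher as deposited and 21.2% after GC correction. PSMA7 had 69.5, 66.8 and 56.5 FPKM in NC and 112, 102 and 95.7 in siPSCA, a ratio of means of 1.61. It had the largest change of the alpha genes, with a log2 fold change of 0.68 (SE 0.10, adjusted p = 0.0028), 0.59 without NC 3 and 0.44 after GC correction (adjusted p = 0.0021). PSMA5 had 14.4, 15.9 and 15.6 FPKM in NC and 18.3, 18.1 and 18.2 in siPSCA (log2 fold change 0.24, SE 0.05, adjusted p = 0.0124). With a GC content of 37.2%, PSMA5 was the higher gene poorest in GC, and its value became 0.58 after GC correction (adjusted p = 0.000567). At the other end, PSMA3 had 39.6, 40.7 and 43.0 FPKM in NC and 37.1, 37.0 and 40.5 in siPSCA, so that the groups overlapped, with a log2 fold change of -0.10 (SE 0.06, adjusted p = 0.178). After GC correction PSMA3 was called in the opposite direction, at 0.19 (adjusted p = 0.0096). PSMA4 had 28.0 to 35.3 FPKM in NC and 29.1 to 30.1 in siPSCA, and PSMA1 had 6.42 to 6.84 and 6.67 to 7.75. Neither was called.

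Core subunits are built into the particle in equal numbers, yet their FPKM differed widely. PSMA6 had 1.13, 1.24 and 1.28 FPKM in NC and 1.18, 0.934 and 1.16 in siPSCA, and its groups overlapped. PSMA2 had 0.636, 0.818 and 0.707 FPKM in NC and 0.842, 0.896 and 0.741 in siPSCA, from 57 to 85 reads per library, and lay below the minimum for the test. Low genes such as these coincided with gene models that share their coding bases. In GENCODE release 29, 97.1% of the coding bases of PSMA2 lie in exons of another gene on the same strand, as do 88.6% of PSMA1, 70.4% of PSMA6 and 58.3% of PSMB10. Of the 13 core genes with no coding base in another gene, 11 had NC means of 15.3 to 72.6 FPKM, and the tissue-specific PSMA8 and PSMB11 were at 0 in all NC libraries. Outside the core the same held for PSMD9 (58.7%, mean 1.03 FPKM), while PSMF1 (14.2%, mean 15.4 FPKM) was not low. The genes that share these bases had 0 to 10 reads per library for PSMA1, PSMA2, PSMA6 and PSMD9, and AC040162.1, which shares those of PSMB10, had 22 to 67. How the authors treated a read that falls in more than 1 gene is not given in the sources used here, and its part in these levels was not tested. The levels of these 5 genes are therefore uncertain, and so is the change of PSMB10. PSMA8, the alpha subunit of the testis, was at 0 in 5 libraries and had 2 reads in siPSCA 3.

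In the base of the regulatory particle, 5 of 9 genes rose, 0 fell and 4 were not called (26.6% higher and 24.2% lower over all genes tested). The median log2 fold change of the base genes was 0.23, and 0.21 after GC correction. PSMC1, an ATPase of the ring, had 6.41, 6.81 and 6.93 FPKM in NC and 10.6, 10.7 and 10.1 in siPSCA, a ratio of 1.55. Its groups were far apart and both fits gave nearly the same log2 fold change, 0.57 before (SE 0.05, adjusted p = 0.00101) and 0.56 after GC correction (adjusted p = 0.000502). Of the exonic bases of PSMC1, 75.8% lie in exons of NRDE2 on the other strand, and 20.0% of its 50-base stretches also occur in pseudogenes, 13 in number, so its level is uncertain. NRDE2 itself had a log2 fold change of 0.08 and was not called. PSMC6, another ATPase, had 10.98, 11.8 and 11.2 FPKM in NC and 10.3, 10.6 and 10.9 in siPSCA. Its libraries did not overlap, yet the log2 fold change of -0.09 (SE 0.05, adjusted p = 0.203) was not called, and after GC correction it was called in the opposite direction, at 0.25 (adjusted p = 0.0096). PSMC3 had 40.5 to 47.8 FPKM in NC and 57.4 to 61.5 in siPSCA (log2 fold change 0.43, adjusted p = 0.0044, and 0.15 after GC correction, not called). PSMC4 had 32.4 to 33.5 and 37.4 to 39.4 FPKM (log2 fold change 0.23, adjusted p = 0.0084), and the value after GC correction was -0.01.

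The remaining base genes were PSMC2, PSMC5 and the non-ATPase subunits PSMD1, PSMD2 and PSMD4. PSMD4, a receptor for ubiquitin chains, had 40.1, 42.3 and 41.7 FPKM in NC and 57.4, 55.4 and 51.8 in siPSCA (log2 fold change 0.40, adjusted p = 0.0026, and 0.21 after GC correction). PSMD2, a scaffold that binds ubiquitin-like proteins, had 65.3 to 73.0 FPKM in NC and 78.8 to 82.6 in siPSCA (log2 fold change 0.25, adjusted p = 0.0144, and 0.03 after GC correction, not called), and the call was lost without NC 2, siPSCA 1 or siPSCA 2 (adjusted p = 0.0505 to 0.0573). PSMC2, PSMC5 and PSMD1 were not called with all libraries, and NC 3 was the highest NC library for each of them. Without NC 3 all 3 passed the test, PSMC2 at 0.19 (adjusted p = 0.0222) in place of 0.13, PSMC5 at 0.22 (adjusted p = 0.0049) in place of 0.11 and PSMD1 at 0.18 (adjusted p = 0.0066) in place of 0.08.

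The lid was the group that divided most. Of its 8 genes 3 rose, 2 fell and 3 were not called (26.6% higher and 24.2% lower over all genes tested), and the median log2 fold change was -0.14. After GC correction 3 were higher and 1 was lower, and the median was 0.13. PSMD3, a scaffold subunit of the lid whose promoter stretch is shown above, had 27.2, 27.0 and 23.6 FPKM in NC and 40.1, 40.3 and 37.2 in siPSCA. It rose by a log2 fold change of 0.58 (SE 0.07, adjusted p = 0.0019), and by 0.41 after GC correction (adjusted p = 0.0018). PSMD12 had 39.6, 40.5 and 45.1 FPKM in NC and 34.6, 34.6 and 36.5 in siPSCA, with every siPSCA library below every NC library. Its log2 fold change of -0.24 (SE 0.06, adjusted p = 0.0226) was lost on GC correction, where the value was 0.08 (adjusted p = 0.125), and also without siPSCA 1 or siPSCA 2 (adjusted p = 0.0784 and 0.0802). PSMD11 had 18.6, 19.1 and 20.6 FPKM in NC and 17.2, 15.9 and 16.9 in siPSCA. This gene was lower in both fits, at -0.21 (adjusted p = 0.0279) and -0.18 (adjusted p = 0.0240), but leaving out NC 2 or any 1 of the siPSCA libraries ended the first call (adjusted p = 0.0582 to 0.103). PSMD8 had 34.9 to 36.2 FPKM in NC and 41.4 to 44.3 in siPSCA and rose (log2 fold change 0.26, adjusted p = 0.0061), with 0.01 after GC correction. PSMD13 rose too, with 22.0 to 25.1 FPKM in NC and 27.7 to 28.7 in siPSCA (0.24, adjusted p = 0.0190, and 0.21 after GC correction), a call that leaving out any 1 siPSCA library ended (adjusted p = 0.0560 to 0.0697). PSMD6, PSMD7 and PSMD14 were not called. PSMD14, the deubiquitinating enzyme of the lid, had 16.8, 17.4 and 19.5 FPKM in NC and 16.0, 16.1 and 16.5 in siPSCA. Its GC content of 32.0% was the lowest of the tested members, and its value went from -0.13 (adjusted p = 0.136) to 0.40 (adjusted p = 0.0016) on GC correction.

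The subcomplexes can be set against each other by their summed FPKM. The alpha genes summed to 160.0, 163 and 159 FPKM in NC and 206, 196 and 193 in siPSCA (ratio of means 1.23), but without PSMA7 the sums were 90.5, 96.3 and 102.4 in NC and 94.3, 93.4 and 97.5 in siPSCA and overlapped. The base genes summed to 282, 289 and 317 FPKM in NC and 361, 351 and 348 in siPSCA (1.19). For the lid the sums were 189, 194 and 207 FPKM in NC and 209.6, 206 and 206 in siPSCA (1.05), and here NC 3 lay among the siPSCA libraries. The ratio of the beta sum to the lid sum was 2.24, 2.13 and 1.90 in NC and 2.56, 2.58 and 2.54 in siPSCA, without overlap. The ratio of the base sum to the lid sum was 1.49, 1.49 and 1.53 in NC and 1.72, 1.70 and 1.69 in siPSCA. The beta sum over the base sum, by contrast, was 1.503, 1.43 and 1.24 in NC and 1.49, 1.51 and 1.503 in siPSCA and overlapped between the groups. Median GC content was 50.9% for the tested beta genes, 40.1% for the tested alpha genes, 48.7% for the base and 46.8% for the lid. The ratios were not tested.

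**Figure D4:**
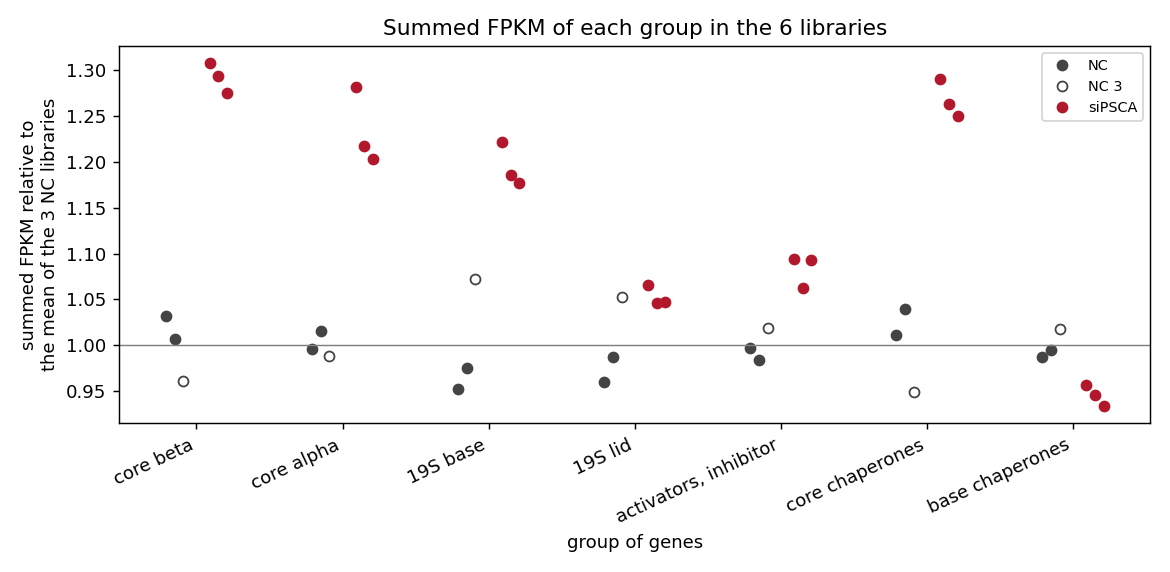
Summed FPKM of each group of proteasome genes in the 6 libraries, divided by the mean of the 3 NC libraries, with an open circle for NC 3. The beta, alpha, base and core chaperone sums of all siPSCA libraries lie above all NC libraries (the alpha sums overlap without PSMA7), NC 3 lies among the siPSCA libraries for the lid, and the base chaperone sums of siPSCA lie below NC.

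Among the caps and the inhibitor, 3 of 5 genes rose, 0 fell and 2 were not called, and 2 were higher after GC correction. The share of higher genes over all genes tested was 26.6%, and 21.2% after GC correction. PSME1 and PSME2 form the cap that interferon gamma induces. PSME1 had 75.6, 71.3 and 72.6 FPKM in NC and 75.2, 74.4 and 74.9 in siPSCA, which overlapped (log2 fold change 0.03, SE 0.04, adjusted p = 0.548). PSME2 had 23.2, 25.9 and 25.6 FPKM in NC and 29.9, 28.8 and 27.1 in siPSCA, and its log2 fold change of 0.19 (SE 0.06, adjusted p = 0.0468) was 0.06 after GC correction (adjusted p = 0.41). Without any 1 library other than NC 3 the PSME2 call was lost (adjusted p = 0.0542 to 0.147). The ratio of PSME1 to PSME2 was 3.26, 2.75 and 2.84 in NC and 2.52, 2.58 and 2.77 in siPSCA, and the groups overlapped. PSME3, the nuclear cap, had 34.3, 32.8 and 32.8 FPKM in NC and 43.0, 39.9 and 43.7 in siPSCA. It was the member of this group with the largest change, at 0.33 (SE 0.05, adjusted p = 0.0042) and 0.30 after GC correction (adjusted p = 0.0046), and was called in all 16 alternatives. PSME4, a large cap of the nucleus and the testis, had 16.9, 16.9 and 20.5 FPKM in NC and 14.5, 14.3 and 16.7 in siPSCA. Its libraries did not overlap, but the log2 fold change of -0.24 (SE 0.10, adjusted p = 0.0783) was not called, and the value was 0.05 after GC correction (adjusted p = 0.594). PSMF1, known as an inhibitor of the core in the test tube, had 13.1, 14.2 and 15.3 FPKM in NC and 16.5, 16.5 and 16.6 in siPSCA (log2 fold change 0.21, SE 0.06, adjusted p = 0.0353, and 0.23 after GC correction, adjusted p = 0.0108). The PSMF1 call was lost likewise without any 1 library other than NC 3 (adjusted p = 0.0779 to 0.0994).

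Of the 7 assembly chaperones tested, 1 was called, while 50.7% of all genes tested were called in either direction. PSMG1 to PSMG4 work in pairs on the alpha ring, and 1 of the 4 rose before and 0 after GC correction. PSMG3 had 14.1, 13.8 and 8.80 FPKM in NC and 19.1, 19.9 and 17.2 in siPSCA. NC 3 was far below the other NC libraries, and the log2 fold change was 0.60 with it (SE 0.17, adjusted p = 0.0291), 0.40 without it (adjusted p = 0.0040) and 0.23 after GC correction (adjusted p = 0.111). The PSMG3 call was also lost without any 1 siPSCA library (adjusted p = 0.0547 to 0.0895). PSMG1 had 12.5, 12.8 and 14.9 FPKM in NC and 15.1, 14.9 and 17.0 in siPSCA (0.21, adjusted p = 0.0875), and passed the test without NC 3 at 0.28 (adjusted p = 0.0143). PSMG2 had 9.97, 10.8 and 10.6 FPKM in NC and 12.5, 10.9 and 10.97 in siPSCA (0.12, adjusted p = 0.195). PSMG4 had 0.908, 1.10 and 0.830 FPKM in NC and 1.11, 1.22 and 1.22 in siPSCA (0.17, adjusted p = 0.219). The chaperones of the base ring, PSMD5, PSMD9 and PSMD10, were not called. PSMD5 had 21.6, 21.3 and 24.5 FPKM in NC and 21.9, 21.3 and 22.6 in siPSCA (log2 fold change -0.03), and was called at 0.17 after GC correction (adjusted p = 0.0188). PSMD9 had 1.04, 0.910 and 0.887 FPKM in NC and 0.882, 1.24 and 1.23 in siPSCA, so the groups overlapped. PSMD10, also known as the oncoprotein gankyrin, had 23.0, 23.8 and 21.7 FPKM in NC and 21.5, 21.2 and 19.3 in siPSCA (-0.14, adjusted p = 0.109), and was lower without NC 3 (-0.17, adjusted p = 0.0420). PSMC3IP matches the rule by its name only, as it encodes a partner of PSMC3 that acts in meiotic recombination. It had 4.02, 4.42 and 4.02 FPKM in NC and 4.80, 6.34 and 4.65 in siPSCA and was not called (0.27, adjusted p = 0.084).

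Subunits and partners with other names were less uniform. Of 11 such genes, 1 rose (ADRM1), 2 fell (UCHL5 and TXNL1) and 8 were not called, and after GC correction 5 were higher and 0 lower. Over all genes tested, 26.6% were higher and 24.2% lower, and 21.2% and 18.5% after GC correction. ADRM1, a ubiquitin receptor of the base, had 33.9, 31.6 and 21.4 FPKM in NC and 44.8, 46.4 and 41.9 in siPSCA. Its log2 fold change was 0.62 (SE 0.17, adjusted p = 0.0226), 0.43 without NC 3 and 0.01 after GC correction (adjusted p = 0.922). UCHL5, the deubiquitinating enzyme that ADRM1 holds, had 13.1, 12.1 and 13.8 FPKM in NC and 8.95, 9.17 and 9.62 in siPSCA (-0.45, SE 0.06, adjusted p = 0.0028, and -0.02 after GC correction). ADRM1 has a GC content of 64.2% and UCHL5 one of 35.2%. Of the 6 genes of ubiquitin and its activating enzymes, 2 rose and 2 fell. UBB, which encodes ubiquitin, had 178, 189.7 and 181 FPKM in NC and 269, 266 and 255 in siPSCA (0.53, SE 0.05, adjusted p = 0.00095, and 0.42 after GC correction). UBA6, an activating enzyme, had 17.4, 17.2 and 16.6 FPKM in NC and 8.77, 9.10 and 9.58 in siPSCA (-0.83, SE 0.05, adjusted p = 0.000374, and -0.35 after GC correction).

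Of 7 shuttle genes, whose proteins carry ubiquitinated substrates to the proteasome, 4 rose, 0 fell and 3 were not called. After GC correction 5 of the 7 were higher. For this and the next lists, 26.6% of all genes tested were higher and 24.2% lower, and 21.2% and 18.5% after GC correction. SQSTM1, also an autophagy receptor, had 33.5, 32.5 and 25.1 FPKM in NC and 49.97, 49.7 and 47.8 in siPSCA (0.69, SE 0.11, adjusted p = 0.0041, and 0.36 after GC correction). DDI2 was lowest at -0.09 (adjusted p = 0.188), and after GC correction it was called higher, at 0.18 (adjusted p = 0.0292). In the segregase complex of VCP, UFD1 and NPLOC4, 2 of 3 rose, with NPLOC4 highest at 0.36 (adjusted p = 0.0019) and UFD1 lowest at -0.12 (adjusted p = 0.109). Of 9 genes that act on transcription of the proteasome genes, 4 rose and 2 fell, and after GC correction 4 were higher and 3 lower. VCP and DDI2, which also stand in the lists above, are among them, as both act on the NFE2L1 protein. NFE2L1 itself had 37.7, 37.8 and 36.2 FPKM in NC and 46.1, 48.4 and 45.7 in siPSCA. It rose by a log2 fold change of 0.32 (SE 0.05, adjusted p = 0.0031), with 0.08 after GC correction (adjusted p = 0.198). NGLY1, the enzyme that strips sugar chains from NFE2L1 and so allows its activation, had 6.03, 6.03 and 6.34 FPKM in NC and 3.00, 2.78 and 3.09 in siPSCA. It fell by 0.85 on the log2 scale (SE 0.06, adjusted p = 0.000498), and by 0.42 after GC correction (adjusted p = 0.0021). MAFK, a partner in DNA binding, had 5.54, 5.10 and 2.80 FPKM in NC and 9.25, 8.85 and 8.58 in siPSCA (0.89, SE 0.20, adjusted p = 0.0132), with 0.65 without NC 3 and 0.30 after GC correction. The related factor NFE2L2 fell by 0.45 on the log2 scale (adjusted p = 0.0034), and by 0.35 after GC correction. The levels of these genes say nothing of the activity of the proteins, which were not measured.

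Across all 16 alternative analyses, 8 of the 22 higher genes kept their call: PSMA5, PSMA7, PSMB4, PSMB5, PSMB7, PSMC1, PSMD3 and PSME3. Their log2 fold changes with all libraries ran from 0.24 to 0.68. They belong to the alpha ring, the beta ring, the base, the lid and a cap, and no assembly chaperone was among them. The level of PSMC1 is uncertain, given its overlap with NRDE2 and the stretches it shares with pseudogenes. The matching count over all genes tested was not made, so whether 8 of 22 is unusual cannot be said.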

How the data were processed

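RNA of 3 NC and 3 siPSCA libraries was sequenced paired-end after NEBNext Ultra library preparation. The authors deposited 1 table of FPKM values with gene length and position, and the submitters' processing notes name GRCh38. Aligner, counting program and strand setting are not given in the sources used here. The position of each of the 58735 genes matched GENCODE release 29. FPKM times gene length was a whole multiple of 1 step for 100% of values (tolerance 0.02 reads), which gave reads per gene and a library total of 16803235 to 18218661.

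Groups follow the labels. The titles of siPSCA 2 and siPSCA 3 name another number after HCT, but their other labels name HCT116. limma 3.58.1 (R 4.3.3; lmFit, then eBayes with trend) was fitted to log2(FPKM + 1) of the 13796 genes whose mean reached 1 FPKM, with no term besides group and Benjamini-Hochberg adjustment over all of them. A pseudocount of 1 understates changes of low genes. For GC correction, a loess trend (span 0.3) on GC content and gene length was taken out of every library. Scripts were tested on simulated data. Python 3.11.15 and matplotlib 3.10.9 were also used.

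The members and gene lists were chosen with earlier results of these data known. Named with values in every library were the catalytic subunits, the highest and lowest tested gene of each list (except DDI2, NPLOC4 and UFD1), PSMB10, the caps, PSMF1 and the chaperones. Other genes given so were chosen after their values were seen. Ranges of FPKM given for a gene run from its lowest to its highest library. Floors (3 reads) cover counting error only.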

Additional observations from a re-analysis of the deposited data

How the results depend on the processing

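The number of higher proteasome genes, 22, lay between 15 and 28 over the 16 alternatives, always within 1.5 times the value reported. The number of lower genes, 2, was 1 without an FPKM minimum, 1 after GC correction, 1 when NC 3 was left out as well, 0 when a replicate block was added to that correction, and 0 to 3 when 1 library was left out. The median log2 fold change of 0.20 became 0.17 without a minimum, 0.17 with TPM, 0.25 with limma-voom on recovered reads, 0.23 after GC correction without NC 3, and 0.16 to 0.22 when 1 library was left out. Among genes called in at least 1 of the fits compared, the sign turned after GC correction for PSMC4 (-0.012), PSMC6 (0.25), PSMD5 (0.17), PSMA3 (0.19), PSMD12 (0.078) and PSMD14 (0.40). All 6 turned with the block added to the correction too. After GC correction with NC 3 left out, the sign turned for PSMC6 (0.21), PSMD5 (0.20), PSMA3 (0.19), PSMD12 (0.10), PSMD14 (0.43), PSMA4 (0.20) and PSMD6 (0.26). Among genes called in neither fit it turned for 7 and 4 more. GC correction without NC 3 was chosen after seeing the data. The cause was not tested.

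With a replicate block 22 genes were higher and 3 lower. Whether same-numbered libraries share a culture or day is not stated in the labels. The correlations of their deviations from the group means were 0.0955, 0.0132 and 0.134, and 4 of 6 libraries were most like their own number. With 3 libraries per group these values cannot settle whether the libraries are paired. Depth limits PSMA2, PSMA8, PSMB8, PSMB10 and PSMB11, which had at most 85 reads in any library.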
